A study of Homo sapiens with 5 samples.

Results

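Oestrogen receptor alpha (ERα) is a transcription factor that enters chromatin when it binds a ligand such as 17β-oestradiol (E2). The sites described here are ERα peaks listed for VCaP cells given E2 that overlap no peak in the other 3 peak lists of the study. A peak is a stretch of the genome where the reads of a chromatin immunoprecipitation library (ChIP-seq, the sequencing of DNA fragments that an antibody brings down with the protein bound to them) had piled up. Members were all peaks of the VCaP + E2 list on chromosomes 1 to 12 and 14 to 22 that had no overlap of 1 bp or more with any peak of the other 3 lists. The members were thus chosen by the measured peak positions of all 4 lists, and their absence from the other lists is a description with no test. This left 677 sites of 1377 VCaP + E2 peaks on those chromosomes, and of 6565 peaks in the 4 lists over the whole genome. Chromosome 13 was left out, so the words autosomes and autosomal refer here to the 21 chromosomes kept.

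VCaP is an established prostate cancer line that depends on the androgen receptor, and VCaP + E2 cells had 48 h without hormone before 14 h in 10 nM E2. The comparison lists were VCaP (no E2 in the labels), VCaP ERα + E2 (a derivative of the line that stably overexpresses ERα) and NCI-H660 + E2. NCI-H660 is a neuroendocrine prostate cancer line whose growth medium already holds 10 nM E2, and it had the same starvation and dose as VCaP + E2. For VCaP ERα + E2 the labels give neither the E2 dose nor its time. Time without hormone is given neither for VCaP ERα + E2 nor for VCaP. The same ERα antibody was used throughout. With 1 library per group there is no replicate error, and conditions could not be tested against each other. Both lists from cells given the stated E2 dose came from a Genome Analyzer II and the rest from a HiSeq, so sequencer and group cannot be told apart.

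In breast cancer cells, where the receptor is best known, most ERα binding lies away from promoters, at enhancers that can act on genes far along the chromosome. The receptor binds as a dimer to a palindromic DNA element, and it often does so where forkhead factors have opened the chromatin. In prostate cells the same enhancers can be used by the androgen receptor. Which of these features the 677 sites carry was not analysed here, because it needs the sequence and genes of the build the positions are in (hg18).

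Close to 50% of the list belonged to this group. The 677 sites were 49.2% of the autosomal VCaP + E2 peaks (95% exact binomial interval 46.5 to 51.8%), a share that stands as the background for every share by width or chromosome given here. Of the 700 peaks that were left out, 690 overlapped NCI-H660 + E2, 16 overlapped VCaP and 4 overlapped VCaP ERα + E2. Only 10 of the 1377 peaks were left out on account of the VCaP or VCaP ERα + E2 list alone. Whether a VCaP + E2 peak became a member therefore turned almost entirely on the NCI-H660 + E2 list. That list had 1693 autosomal peaks, against 89 for VCaP and 458 for VCaP ERα + E2. Of its peaks, 988 (58.4%) overlapped no other list. It also came from the same type of sequencer as VCaP + E2, unlike VCaP and VCaP ERα + E2. What list length, cell line and sequencer each add to the overlap was not tested. Intervals cover counting error only, and they are too narrow where neighbouring peaks are not independent.

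The limit between members and other peaks can be seen in the peaks nearest to it. The member closest to another list was chr2:114076809-114076937, with a gap of 4 bp to a NCI-H660 + E2 peak. Next came chr22:18276888-18277188 with a gap of 69 bp and chr9:136631172-136631514 with a gap of 103 bp, both to NCI-H660 + E2. On the other side, the smallest overlaps were 33 bp at chr22:25374741-25374888, 37 bp at chr21:44952307-44952455 and 37 bp at chr4:3634538-3634703, all with NCI-H660 + E2. Very few peaks thus lay near the limit: 2 members were within 100 bp of a peak of another list and 43 within 1000 bp (6.35%, interval 4.63 to 8.46%).

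The VCaP + E2 only sites were narrow. Their median width was 160 bp, with quartiles of 140 and 169 bp and a range of 99 to 938 bp. The 690 VCaP + E2 sites shared with NCI-H660 + E2 had a median of 273.5 bp, with quartiles of 172 and 346 bp and a maximum of 2440 bp. The 988 NCI-H660 + E2 only sites had a median of 147 bp, with quartiles of 124 and 169 bp. Sites found only in VCaP + E2 or only in NCI-H660 + E2 were therefore narrow, and the sites these lists shared were the wide ones. Widths of sites found only in VCaP ERα + E2 or only in VCaP were not compared. Together the 677 sites covered 0.117 Mb, and the 690 shared sites covered 0.220 Mb.

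The widths had a sharp upper edge. The most frequent width was 169 bp, at 41 of the 677 sites, and it was also the most frequent among shared sites (23) and NCI-H660 + E2 only sites (67). At 75.8% of the VCaP + E2 only sites the width was 169 bp or less (interval 72.4 to 79.0%), as it was at 75.7% of the NCI-H660 + E2 only sites (interval 72.9 to 78.4%) and at 21.9% of the shared sites (interval 18.9 to 25.2%). A smaller group of widths from 290 to 309 bp held 32 of the VCaP + E2 only sites (4.73%) and 99 of the shared sites (14.3%). Only 35 VCaP + E2 only sites were 300 bp wide or more (5.17%, interval 3.63 to 7.12%), against 297 of the shared sites (43.0%, interval 39.3 to 46.8%).

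**Figure D1:**
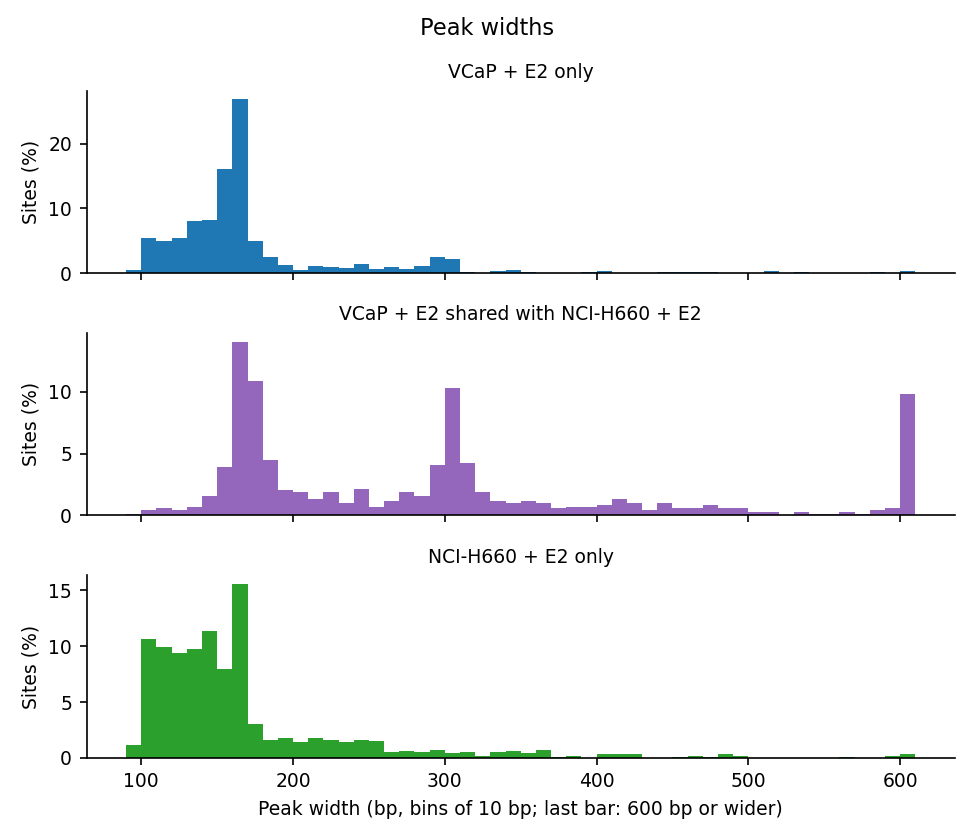
Widths of VCaP + E2 only sites (677), VCaP + E2 sites shared with NCI-H660 + E2 (690) and NCI-H660 + E2 only sites (988), as the percentage of sites in bins of 10 bp, with all sites of 600 bp or more in the last bar and a vertical scale of its own in each panel. The tallest bar is at 160 to 169 bp in each panel, and the second group near 300 bp is high only in the shared sites.

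Seen the other way, the share of VCaP + E2 peaks that were in that list only fell with width. Of the 183 peaks of 99 to 139 bp, 166 were members (90.7%, interval 85.5 to 94.5%). Of the 483 peaks of 140 to 169 bp, 347 were members (71.8%, interval 67.6 to 75.8%). The share was 34.7% of the 372 peaks of 170 to 299 bp (interval 29.8 to 39.8%) and 10.3% of the 339 peaks of 300 bp or more (interval 7.30 to 14.1%). The step was largest at 170 bp. A wider peak has more bases that can overlap another list, and peak heights were not analysed here, so width cannot be set against the strength of a peak. The limits of the width classes were set after the widths were seen.

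The 10 widest members were read one by one. The widest, chr1:141479198-141480135, was 938 bp and lay in a run of 4 members within 3.62 kb (chr1:141477250-141480867) whose other widths were 394, 174 and 513 bp. The site of 513 bp was itself among the 10 widest. No other peak of any list fell in this run, and the nearest one was 2.16 Mb away. Its first site was the first peak after the longest stretch of chromosome 1 without a peak in any list (20.3 Mb). The second widest, chr18:75285448-75286114, was 667 bp, and its nearest peak of another list was 111 kb away. On chromosome 2 the sites chr2:132741275-132741863 and chr2:132749529-132750043 were 589 and 515 bp wide and belonged to 1 cluster. The site chr10:134575617-134576150 was 534 bp and ended at the highest position listed on chromosome 10. The others were chr14:94187018-94187488 (471 bp), a site of 465 bp on chromosome 8, chr1:153060518-153060975 (458 bp, in a cluster) and chr3:199384414-199384862 (449 bp). The wide members were thus spread over 7 chromosomes, and 3 of the 10 lay in clusters.

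All 21 autosomes held members, between 10 (chromosome 12) and 100 (chromosome 1). Relative to the length of chromosome covered by the lists, the density was highest on chromosomes 22 (0.938 sites per Mb, 3.69 times the even share), 21 (0.674 per Mb, 2.65 times) and 19 (0.533 per Mb, 2.09 times). It was lowest on chromosomes 12 (0.0776 per Mb, 0.305 times) and 11 (0.113 per Mb, 0.443 times). Chromosome 1 held 14.8% of the members on 9.21% of the length, or 1.60 times the even share. Without 1 dense cluster it held 71 members, which is 10.96% of the members outside that cluster. The median width was between 143.5 bp (chromosome 22) and 168 bp (chromosome 16) on every chromosome, so narrow peaks were found throughout.

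The high densities on 19, 21 and 22 were not particular to the members, since other VCaP + E2 peaks were dense there too. Members were 40.5% of the VCaP + E2 peaks on chromosome 19, 41.0% on 21 and 56.1% on 22, each with an interval that holds the background of 49.2%. On 4 chromosomes the interval did not hold it. The share was higher on chromosome 8, where 35 of 45 peaks were members (77.8%, interval 62.9 to 88.8%), and on chromosome 1, where 100 of 152 were (65.8%, interval 57.7 to 73.3%). It was lower on chromosome 15, with 16 of 58 (27.6%, interval 16.7 to 40.9%), and on chromosome 16, with 30 of 85 (35.3%, interval 25.2 to 46.4%). Without 1 dense cluster on chromosome 1 the share there was 71 of 122 (58.2%, interval 48.9 to 67.1%). These intervals are not adjusted for the 21 chromosomes looked at.

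**Figure D2:**
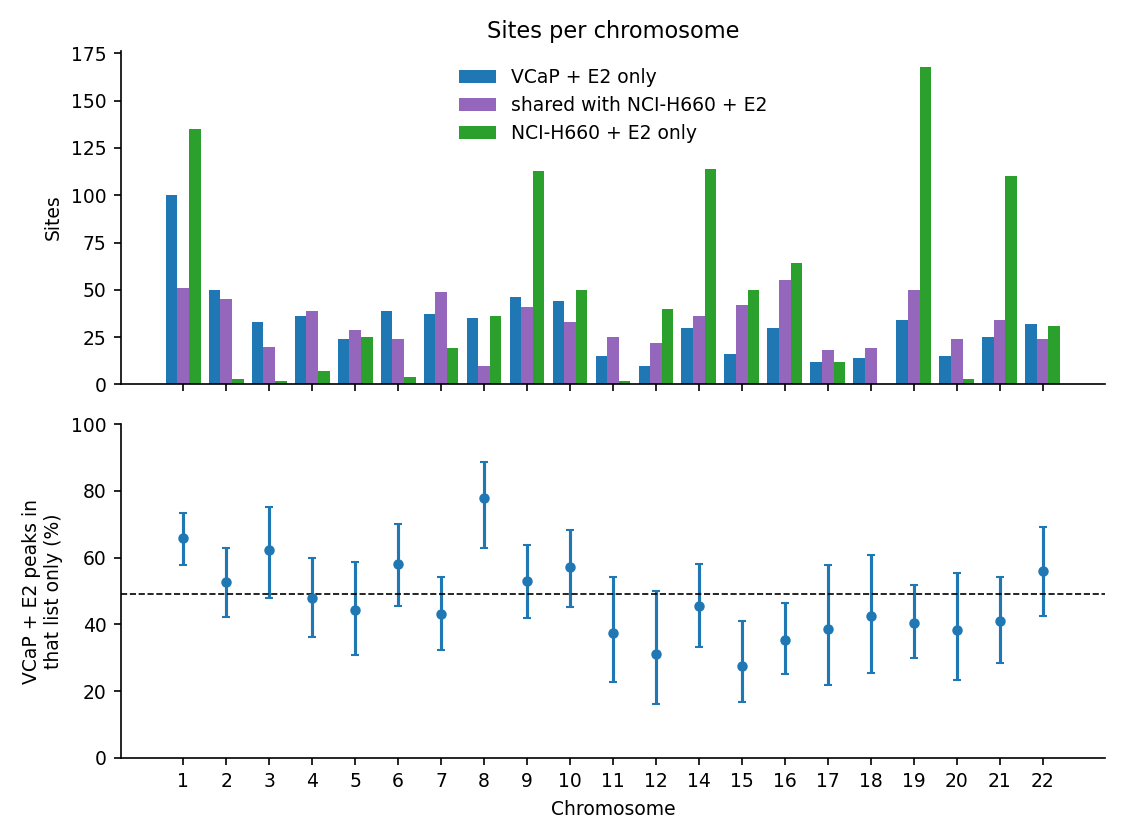
Upper panel, number of VCaP + E2 only sites, VCaP + E2 sites shared with NCI-H660 + E2 and NCI-H660 + E2 only sites on each chromosome. Lower panel, share of the VCaP + E2 peaks of a chromosome that were in that list only, with exact binomial 95% intervals and the share over all chromosomes (49.2%) as a dashed line. Only the intervals of chromosomes 1 and 8 lie wholly above the line, and only those of 15 and 16 wholly below it.

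The sites found only in VCaP + E2 and those found only in NCI-H660 + E2 occurred together on 20 of the 21 autosomes, in shares that differed on some of them. Chromosome 1 held 14.8% of the former and 13.7% of the latter. Without its dense cluster of members the former share was 10.96%, and no cluster of the latter was left out. On the 7 chromosomes with at most 10 NCI-H660 + E2 only sites, a limit set after the values were seen (2, 3, 4, 6, 11, 18 and 20), there were 202 VCaP + E2 only sites (29.8%, interval 26.4 to 33.4%) and 21 NCI-H660 + E2 only sites (2.13%, interval 1.32 to 3.23%). Those chromosomes are 40.2% of the length, so the VCaP + E2 only sites were also fewer there than an even share. The sites shared by both lists were like the VCaP + E2 only sites there, with 196 of 690 (28.4%, interval 25.1 to 31.9%). Chromosome 2 alone had 50 VCaP + E2 only sites, 45 shared sites and 3 NCI-H660 + E2 only sites. In the other direction, chromosome 19 had 34 VCaP + E2 only sites, 50 shared sites and 168 NCI-H660 + E2 only sites. The limit chose chromosomes low in NCI-H660 + E2 only sites, so that side of the contrast is a description.

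On 7 chromosomes (2, 3, 4, 7, 10, 12 and 20) VCaP ERα + E2 was without any peak. These chromosomes are 41.7% of the length and held 225 of the 677 sites (33.2%, interval 29.7 to 36.9%), fewer than an even share. The shared sites had 232 there (33.6%, interval 30.1 to 37.3%). For these 225 sites the absence from VCaP ERα + E2 was shared by the whole chromosome.

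Toward the ends of the listed span of the chromosomes, members were denser than over the rest. These ends are the lowest and highest listed positions, so each holds a peak of some list by definition. Chromosomes 14, 15, 21 and 22 were set aside, because their lowest listed positions lie at 9.81 to 19.99 Mb. On the other 17, 109 of 574 members lay in the outer 5 Mb on either side (18.99%, interval 15.9 to 22.4%), which is 7.02% of the length. The shared sites had 126 of 554 there (22.7%, interval 19.3 to 26.5%) and the NCI-H660 + E2 only sites 89 of 683 (13.03%, interval 10.6 to 15.8%). In the outer 2 Mb the numbers were 70 members (12.2%, interval 9.63 to 15.2%), 60 shared sites (10.8%) and 43 NCI-H660 + E2 only sites (6.30%, interval 4.59 to 8.39%), on 2.81% of the length. Both kinds of VCaP + E2 site therefore had intervals that overlapped each other at the ends.

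Most members stood alone. When sites with gaps of up to 100 kb were joined, 506 of the 677 sites had no other member in reach and 34 pairs took up another 68. Runs of 3 or 4 sites numbered 9 and held 29 sites. The remaining 74 sites (10.9%, interval 8.68 to 13.5%) formed 7 clusters of 5 sites or more. By the same rule the shared sites had 38 of 690 in 6 clusters (5.51%, interval 3.93 to 7.48%), and the NCI-H660 + E2 only sites had 195 of 988 in 18 clusters (19.7%, interval 17.3 to 22.4%). Without the largest cluster the members' share was 45 of 648 (6.94%, interval 5.11 to 9.18%), whose interval overlaps that of the shared sites. Inside those 18 clusters lay 2 of the 677 members. The share of all VCaP + E2 peaks inside them and their length were not measured, so this count has no background.

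The 7 clusters differed in what else they held. In 5 of them members lay beside peaks that VCaP + E2 shared with NCI-H660 + E2 and there was no VCaP ERα + E2 peak, 1 held no peak of another list, and 1 held peaks of VCaP ERα + E2. The cluster on chromosome 2 (chr2:132731536-132755548) was the densest of these, with 12 members in 24.0 kb beside 7 shared sites and 8 NCI-H660 + E2 peaks. Its members were wide, from 136 to 589 bp with a median of 245 bp, and lay 308 to 4039 bp from the nearest NCI-H660 + E2 peak. On chromosome 16 (chr16:33772635-33873227) 8 members lay beside 8 shared sites, with member widths of 100 to 401 bp and a median of 294.5 bp. This cluster ended at the last listed position before the longest stretch of chromosome 16 without any peak (11.1 Mb).

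Members of the next clusters were narrower, with medians of 158 to 167 bp. On chromosome 10 (chr10:41675500-41718729) 7 members of 116 to 169 bp lay beside 6 shared sites and 1 VCaP peak. On chromosome 4 (chr4:48802343-48851776) 7 members of 104 to 350 bp lay beside 1 shared site. Chromosome 21 had a pair of clusters, one with 6 members of 112 to 251 bp beside 3 shared sites (chr21:10135223-10167252) and one with 5 members of 99 to 268 bp and no peak of any other list (chr21:9809778-9823004). The latter began at the lowest position listed on the chromosome, and the former ended 41.4 kb before its longest stretch without a peak (4.47 Mb). In the 5 clusters with shared sites, 1 short stretch of DNA thus gave both peaks that NCI-H660 + E2 shared and peaks that it did not.

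**Figure D3:**
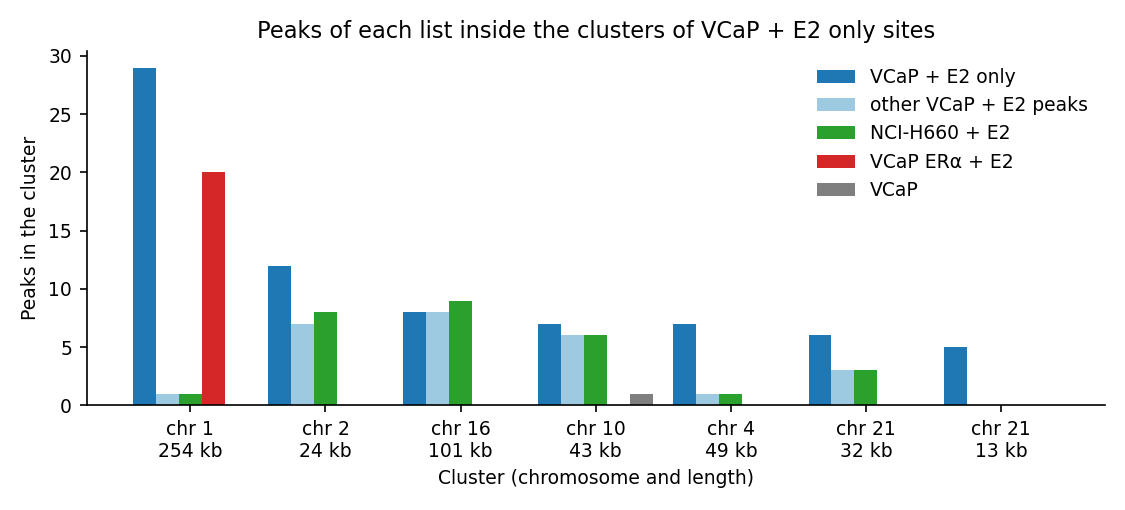
Number of VCaP + E2 only sites, other VCaP + E2 peaks and peaks of NCI-H660 + E2, VCaP ERα + E2 and VCaP in each of the 7 clusters, ordered by the number of VCaP + E2 only sites, with the length of each cluster. VCaP ERα + E2 has peaks (20) only in the cluster on chromosome 1.

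The largest cluster was the one with VCaP ERα + E2 peaks. It lay in 1q21 (chr1:152950996-153204767) and held 29 members in 254 kb, which is 114 per Mb against 0.255 per Mb over all autosomes. These were 4.28% of all members and 29 of the 100 on chromosome 1. The VCaP + E2 list had 30 peaks in the stretch. Of these, 29 were members, but the stretch was drawn as a run of members. A high share and a high density of members were thus built in. NCI-H660 + E2 had 1 peak there and VCaP had none, which allows up to 3.37% of the 89 autosomal VCaP peaks. The VCaP list is so short that its lack of a peak in 254 kb says little.

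VCaP ERα + E2, in contrast, had 20 peaks in the same stretch. They belonged to a cluster of that list that ran from 153018911 to 153263138, with 24 peaks in 244 kb. The only VCaP + E2 peak of the stretch that overlapped one of them was chr1:153180601-153180725, which is 125 bp long and lies wholly inside a VCaP ERα + E2 peak of 328 bp. Of the 29 members, 2 came before the first VCaP ERα + E2 peak of the stretch and 27 lay within the cluster of that list. Their gaps to the nearest VCaP ERα + E2 peak ran from 115 to 67749 bp with a median of 2316 bp, and 24 of the 29 were within 5000 bp. Along the stretch, 24 of 48 neighbouring pairs of a member or VCaP ERα + E2 peak came from different lists. That count was not compared with a random order of the same peaks.

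By base, both lists marked little of the stretch. Members covered 1.76% of it and VCaP ERα + E2 peaks 2.25%. The members there were narrow, with a median of 142 bp and a range of 100 to 458 bp, while the VCaP ERα + E2 peaks had a median of 270.5 bp and a range of 100 to 577 bp. The densest part was chr1:153058745-153061457, where 5 members of 135, 131, 159, 458 and 157 bp followed each other. At the level of single peaks these 29 sites were in VCaP + E2 only, and at the level of the stretch both VCaP lists with E2 had a cluster. Genes of the stretch were not assigned, as no hg18 annotation was used here.

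**Figure D4:**
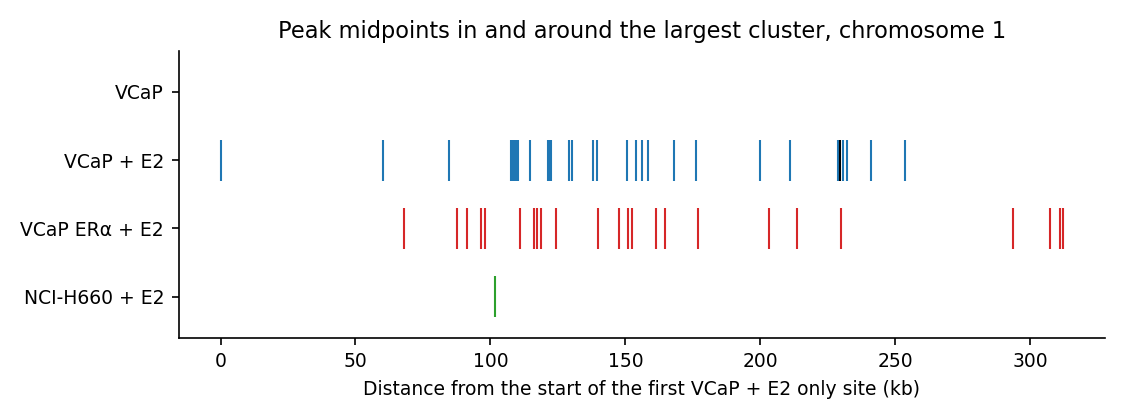
Midpoints of the peaks of each list in and around the largest cluster on chromosome 1, as distance in kb from the start of its first VCaP + E2 only site. Blue lines are the 29 VCaP + E2 only sites and the black line is the VCaP + E2 peak that overlaps VCaP ERα + E2. The peaks of VCaP ERα + E2 (red) lie between the blue lines over most of the stretch.

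Outside that cluster, members were seldom near the other VCaP lists. Within 10 kb of a VCaP ERα + E2 peak lay 36 of the 677 sites (5.32%, interval 3.75 to 7.29%), of which 26 were in the 1q21 cluster. Without the cluster the share was 10 of 648 (1.54%, interval 0.742 to 2.82%), and for the shared sites it was 3 of 690 (0.435%, interval 0.0898 to 1.27%). Within 100 kb the numbers were 49 of 648 (7.56%, interval 5.65 to 9.87%) and 28 of 690 (4.06%, interval 2.71 to 5.81%). Of those 49 sites, 19 were on chromosome 22, which holds 176 of the 458 autosomal VCaP ERα + E2 peaks. The 32 members on that chromosome lay at a median of 53.2 kb from a VCaP ERα + E2 peak, the nearest at 551 bp.

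Near the VCaP list, the only one without E2, members were fewer still. Of the 677 sites, 2 were within 10 kb of a VCaP peak, chr10:41699117-41699274 at 5299 bp and chr19:32430988-32431203 at 6847 bp. This was 0.295% (interval 0.0358 to 1.06%), against 18 of 690 shared sites (2.61%, interval 1.55 to 4.09%), of which 10 overlapped a VCaP peak, as no member could by the way members were chosen. Within 100 kb there were 29 (4.28%, interval 2.89 to 6.09%), close to the 29 of 690 shared sites (4.20%, interval 2.83 to 5.98%). The VCaP list is short, and for 242 members it had no peak on the chromosome at all.

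NCI-H660 + E2 peaks were nearer, but that list is also the longest. It had 1693 autosomal peaks, against 458 for VCaP ERα + E2 and 89 for VCaP, and nearness was not scaled to list length. The median gap from a member to the NCI-H660 + E2 list was 0.444 Mb. Within 10 kb of that list lay 81 sites (12.0%, interval 9.62 to 14.7%), and 34 lay within 1000 bp. Those 34 had a median width of 187 bp, and 13 of them were in clusters. Seen from the NCI-H660 + E2 only sites, 17 of 988 were within 10 kb of a VCaP + E2 peak (1.72%, interval 1.01 to 2.74%). Members were thus next to a peak of the other cell line more often than that line's own sites were next to a VCaP + E2 peak. Outside clusters 45 of 603 members were within 10 kb (7.46%, interval 5.50 to 9.86%).

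**Figure D5:**
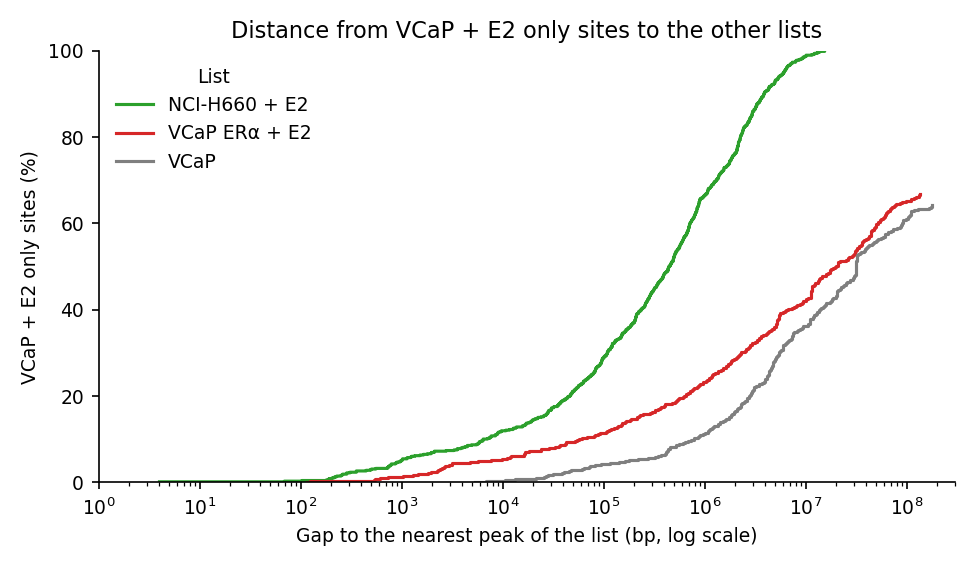
Cumulative share of the 677 VCaP + E2 only sites against the gap to the nearest peak of each other list, in bp on a log scale. Curves that stop below 100% reflect sites on chromosomes where the list had no peak. At 100 kb the curves stand at 28.8% for NCI-H660 + E2, 11.5% for VCaP ERα + E2 and 4.28% for VCaP. The curves are not scaled to list length, which is 1693, 458 and 89 autosomal peaks in that order.

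Within their own list, 128 of the 677 members (18.9%) had another VCaP + E2 peak within 10 kb and 230 (34.0%) within 100 kb. A VCaP + E2 peak shared with NCI-H660 + E2 lay within 10 kb of 67 members (9.90%) and within 100 kb of 132 (19.5%). The median gap to any other VCaP + E2 peak was 323 kb. On chromosome 11, in the stretch that holds all VCaP ERα + E2 peaks of the chromosome (63114263 to 66797526), 2 of the 3 VCaP + E2 peaks were members, chr11:63641471-63641736 and chr11:64026847-64027003. Over the whole of chromosome 11, 15 of 40 were members (37.5%, interval 22.7 to 54.2%). With 3 peaks the stretch cannot be told apart from that share.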

How the data were processed

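Data were lists of ERα ChIP-seq peaks from 4 libraries. The deposited values are start and end positions in bp, with no score, count or depth, and the submitters' processing notes name the build hg18 and CASAVA 1.8. The study names ChIPSeeqer as peak caller. Its threshold, the aligner, the treatment of duplicate and multiply placed reads and the use of input are not given in the sources used here. Positions follow the BED convention in the files and are printed 1-based. Depth is unknown, so a list's length cannot be scaled to it, and a peak absent from a list may have missed its threshold.

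Groups came from the labels. Peaks, clusters and alternatives were chosen with earlier results of these data known. Sites named are the 10 widest, the clusters with most sites and those nearest the overlap limit. Others, and the runs named beside them, were picked after their values were seen. Chromosome length is the span from lowest to highest listed position. Shares carry exact (Clopper-Pearson) 95% intervals, and a count of 0 allows 3 counts. Overlap code was checked on simulated data and against bedtools 2.31.1. Python 3.11.15, numpy 2.4.6, scipy 1.17.1 and matplotlib 3.10.9 were used. The input library, genes, motifs and sequence were not analysed here.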

Additional observations from a re-analysis of the deposited data

How the results depend on the processing

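No paired analysis was possible because the design has no replicates, so none could be left out either. Requiring 50% of the shorter peak, midpoints within 1000 bp, merging within 1000 bp or the lists with E2 alone kept 619 to 683 sites (46.8 to 49.6%) with a median of 160 bp. With the wider 50% of each list there were 276 sites (38.1%, median 212 bp), and with the other VCaP lists alone 1357 (98.5%, median 170 bp), where fewer peaks were compared. The share in clusters was 5.82% after merging, 15.2% with at least 3 sites, 6.06% with at least 10 and 6.94% without the largest cluster, which kept 20 to 29 sites except with the wider 50% (5). The share within 10 kb of VCaP ERα + E2 was 1.54% without that cluster and 11.5% within 100 kb. For NCI-H660 + E2 it was 7.46% without clusters and 28.8% within 100 kb. Over all 21 autosomes 22.3% of sites lay in the outer 5 Mb, 14.3% in the outer 2 Mb and 18.99% without 14, 15, 21 and 22. With VCaP + E2 peaks in place of length, the even share of chromosome 1 was passed 1.34 times, and 11 of 21 chromosome ratios moved beyond their interval. The cause of these changes was otherwise not tested. The distances, the omission of the largest cluster and the outer stretches were added after the data were seen. Alternatives for genes, promoters, motifs and base composition were not run, since they need hg18.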

Other observations

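On the chromosomes left out above, the VCaP + E2 list also had peaks that overlapped no other list. Chromosome 13 had 458 of 545 (84.0%, interval 80.7 to 87.0%, median 157.5 bp), X had 62 of 391 (15.9%, interval 12.4 to 19.9%, median 160 bp) and Y had 91 of 192 (47.4%, interval 40.2 to 54.7%, median 169 bp). Their median widths were between 157.5 and 169 bp, near the 160 bp of the autosomal sites.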
